A study of Mus musculus with 12 samples.

Results

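The tektin genes Tekt1, Tekt2, Tekt3, Tekt4 and Tekt5 were followed through the last steps of sperm formation in the mouse. Their members were every transcript contig in the count matrix that the deposited tables pair with one of these 5 symbols, which gave 11 of 12114 contigs and 5 of 7011 gene symbols. The rule uses no measured value. Tekt1 has 3 contigs (ENSMUST00000021155, ENSMUST00000108502 and ENSMUST00000108503), Tekt2 has 2 (ENSMUST00000030658 and ENSMUST00000102616) and Tekt4 has 4 (ENSMUST00000025002, ENSMUST00000234104, ENSMUST00000234436 and ENSMUST00000235033). Tekt3 (ENSMUST00000035732) and Tekt5 (ENSMUST00000043415) have 1 contig each.

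Poly(A) RNA was read directly on nanopores from round spermatids (RS) and elongated spermatids (ES), sorted from testes of adult male mice by Hoechst staining of DNA and light scatter. The mice were either Tent5c wt/wt or Tent5c dcat/dcat, the latter carrying on both alleles a form of the poly(A) polymerase TENT5C that is catalytically inactive, and no other treatment was given. Each of the 4 groups (RS wt/wt, RS dcat/dcat, ES wt/wt, ES dcat/dcat) holds 3 libraries, and each library is a pool of RNA from 3 mice, so p-values measure the spread between pools. The dcat alleles were not restricted to germ cells.

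Tektins are coiled-coil proteins that assemble into filaments along the inner wall of the doublet microtubules of cilia and flagella, where they lie among many other microtubule inner proteins. Tekt1, Tekt2, Tekt3 and Tekt4 are found in sperm flagella and in other motile cilia, whereas Tekt5 is known mainly from sperm. Round spermatids still transcribe while the flagellum grows, and transcription stops as the nucleus condenses, so that elongated spermatids work largely from stored mRNA.

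The 5 genes differ along most of their coding sequence, with 57.0% to 62.5% identical bases between aligned pairs of genes and share a short stretch that marks the family. That stretch of 9 codons is shown because it is the part by which a tektin is recognised. Capitals mark the 15 of 27 bases that are the same in all 5 mouse genes.
Tekt1: cGGcCgAAcGTgGAgcTgTGtcGaGAt
Tekt2: cGGtCcAAtGTgGAgcTcTGccGgGAc
Tekt3: aGGcCaAAcGTaGAgcTgTGcaGgGAt
Tekt4: cGGcCcAAtGTgGAgtTgTGccGgGAc
Tekt5: cGGcCcAAtGTgGAacTcTGcaGgGAt
These sequences were read from the GRCm38 genome at chr11:72345642-72345668 (minus strand, exon 7 of 8, Tekt1), chr4:126322823-126322849 (minus strand, exon 9 of 11, Tekt2), chr11:63087321-63087347 (plus strand, exon 7 of 8, Tekt3), chr17:25475673-25475699 (plus strand, exon 5 of 6, Tekt4) and chr16:10361272-10361298 (minus strand, exon 6 of 7, Tekt5), in coding exons throughout. In Tekt2, 1 codon of the stretch is translated differently from Tekt1, and in the other 3 genes none is. A coding exon of 144 bases occurs in all 5 genes, and one of 223 bases in Tekt1, Tekt3, Tekt4 and Tekt5, while exons of 155 and 71 bases are shared by Tekt3, Tekt4 and Tekt5.

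Contigs of one gene overlap, nearly in full for Tekt1 and Tekt2. The 3 Tekt1 contigs (chr11:72344722-72362442, minus strand) hold the same 1254 coding bases, differ in a non-coding first exon and share 1309 to 1316 bases pairwise. Both Tekt2 contigs (chr4:126322121-126325688, minus strand) hold the same 1290 coding bases, and all 1492 bases of ENSMUST00000030658 lie in ENSMUST00000102616. The exons of Tekt2 overlap the gene Gm12945, and whether strand was used in counting is not given in the sources used here. Tekt3 (chr11:63061654-63094964, plus strand) and Tekt5 (chr16:10357948-10395490, minus strand) have 1470 and 1671 coding bases.

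Tekt4 (chr17:25454615-25476602, plus strand) has a pair of coding contigs, with 1341 and 1326 coding bases, and 2 contigs annotated as processed transcripts without a coding sequence. The processed transcripts share 649 to 871 bases with the coding contigs, which share 1514 bases with each other. The coding contigs part at the end of one exon, where ENSMUST00000025002 runs 15 bases, or 5 codons, further than ENSMUST00000235033. The junction is printed because these 15 bases, in capitals, are the coding difference between them. Flanking bases come from chr17:25472211-25472255 and chr17:25473736-25473765 of GRCm38 (plus strand), both in coding exons.
ENSMUST00000025002: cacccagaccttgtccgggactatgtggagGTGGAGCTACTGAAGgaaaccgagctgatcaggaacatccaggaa
ENSMUST00000235033: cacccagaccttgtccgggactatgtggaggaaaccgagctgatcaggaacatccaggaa
Since contigs of a gene share many bases, each gene was described first by the sum of its contigs, which does not depend on how reads were divided among them.

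Libraries held 337287 to 1359427 counts, and 3 counts, taken as the floor, corresponded to 1.77 to 10.6 CPM, a count scaled to the size of its library, here with the trimmed mean of M-values (TMM). The lowest count of a tektin gene in any library was 19, and all 11 contigs passed the filter of at least 10 reads in 2 libraries of a group. Marker lists were chosen with earlier results of these data known, so counts of called markers are a description. Over all genes tested, 24.7% were called higher and 27.8% lower in wt/wt. Genes marking elongated spermatids were called higher in ES wt/wt than in RS wt/wt for 9 of 9, from Odf1 (log2 change 2.18) to Prm1 (3.12). Genes marking round spermatids were called lower for 8 of 8, from Acrv1 (−0.69) to Spesp1 (−1.49). In dcat/dcat these calls were 9 of 9 and 7 of 8, without Acrv1. Of 7 counted Leydig cell markers of 12 listed, 6 were higher in ES wt/wt, up to Fabp3 (5.46), while Fdx1 was at −0.21 and not called, and their summed level was 69.0 to 129 CPM in RS against 289.8 to 1069 CPM in ES libraries. All 7 counted Sertoli cell markers of 14 listed were higher, from Ctsl (2.89) to Cldn11 (4.48), with sums of 6.41 to 42.0 CPM in RS against 208 to 479 CPM in ES. Of 10 counted meiotic markers of 16 listed, 5 were called lower in wt/wt, down to Spo11 (−1.56), and 1 higher (Tex101). Over all genes tested, 52.5% were called there. In dcat/dcat 3 meiotic markers were called lower and 2 higher. Sums of the meiotic markers were 808 to 1056 CPM in RS against 547 to 636 CPM in ES. Tent5c itself, whose dcat form differs in the protein and is not checked by counts, was at a log2 change of 0.15 between genotypes in RS and 0.20 in ES, neither called. The part of these other cells in the tektin results was not tested. In sorted bulk samples a smaller share of cells of one type and less RNA per cell cannot be told apart.

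Libraries numbered 1 and ES wt/wt replicate 3 stood apart from the rest in how reads were divided among contigs of a gene. Over 1877 other genes with several contigs, the mean percentage of a gene's reads on its most counted contig was 71.1 in both RS libraries numbered 1 against 63.8 to 65.2 in RS libraries numbered 2 and 3. In ES it was 69.0 and 69.5 in the libraries numbered 1 and 65.5 in ES wt/wt replicate 3, against 59.8 to 61.8 in the other 3. Labels give no cause, none was tested, and ES wt/wt replicate 3 was put with the libraries numbered 1 after its values were seen. Stage changes are given below with and without these 5 libraries.

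Transcripts of 4 tektin genes fell and those of Tekt5 rose between round and elongated spermatids, in both genotypes. Tekt1 was 1.88-fold, Tekt2 1.65-fold, Tekt3 2.06-fold and Tekt4 2.45-fold lower in ES wt/wt than in RS wt/wt, and Tekt5 was 2.99-fold higher. Called genes, at q at or under 0.05 with edgeR's quasi-likelihood test and Benjamini-Hochberg adjustment over all genes, were 5 of 5 in wt/wt, where the test called 52.5% of 7707 genes or unnamed contigs (24.7% higher, 27.8% lower), and 5 of 5 in dcat/dcat, where it called 52% (24.7% higher, 27.3% lower). Groups did not overlap for all 5 genes in both genotypes, beside 60.6% of genes in wt/wt and 58.6% in dcat/dcat. The median log2 change of the 5 tektins was −0.91 in wt/wt and −1.07 in dcat/dcat, beside −0.33 and −0.29 over all genes tested.

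Tekt1, a tektin of the axonemes of both cilia and sperm, stood at 617, 751 and 664 CPM in RS wt/wt replicates 1 to 3 and at 416, 323 and 335 CPM in ES wt/wt. It stood at 761, 660 and 580.1 CPM in RS dcat/dcat and at 345, 327 and 319 CPM in ES dcat/dcat. Every ES library lay below every RS library. The log2 change was −0.91 ± 0.16 (SE, n = 3 per group, q = 6.0e-05) in wt/wt and −1.01 ± 0.16 (q = 1.8e-05) in dcat/dcat by edgeR.

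Tekt2, which is needed for a motile flagellum in mice, stood at 531, 527 and 490.2 CPM in RS wt/wt and at 279, 283 and 385 CPM in ES wt/wt. Its levels were 584, 539 and 425 CPM in RS dcat/dcat and 253, 259.7 and 226 CPM in ES dcat/dcat. Again no ES library reached an RS library, the nearest pair being ES wt/wt replicate 3 and RS dcat/dcat replicate 3. The log2 change was −0.72 ± 0.16 (q = 9.9e-04) in wt/wt and −1.07 ± 0.17 (q = 2.0e-05) in dcat/dcat by edgeR.

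Tekt3, a tektin of sperm flagella whose loss in mice affects the way sperm swim, was at 373, 381 and 362 CPM in RS wt/wt against 192, 164 and 187 CPM in ES wt/wt. In dcat/dcat it was at 429.5, 347 and 342 CPM in RS against 162, 182 and 137 CPM in ES. Both stages were well separated, and the spread within RS wt/wt was the smallest of the tektins in that group relative to its mean (372 ± 9.73 CPM, SD, n = 3). The log2 change was −1.04 ± 0.16 (q = 1.9e-05) in wt/wt and −1.23 ± 0.16 (q = 2.6e-06) in dcat/dcat by edgeR.

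Tekt4, a sperm tektin whose loss in mice weakens the flagellar beat, had the most negative change of the 5. It was measured at 608, 500.5 and 470.1 CPM in RS wt/wt and at 232, 198 and 215 CPM in ES wt/wt, and at 566, 540.2 and 471 CPM in RS dcat/dcat and 257, 157 and 198 CPM in ES dcat/dcat. No ES library overlapped an RS library. The log2 change was −1.29 ± 0.18 (q = 4.3e-06) in wt/wt and −1.36 ± 0.18 (q = 2.1e-06) in dcat/dcat by edgeR.

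Tekt5, the tektin enriched in sperm, moved the opposite way from a low start. Its levels were 38.2, 22.6 and 40.2 CPM in RS wt/wt (46, 19 and 68 reads) and 116, 78.0 and 124 CPM in ES wt/wt (55, 41 and 35 reads). In dcat/dcat they were 38.5, 26.2 and 47.0 CPM in RS (36, 20 and 57 reads) and 116, 77.4 and 60.8 CPM in ES (50, 31 and 36 reads). All 6 ES libraries lay above all 6 RS libraries. The log2 change was 1.58 ± 0.28 (q = 9.3e-05) in wt/wt and 1.13 ± 0.29 (q = 0.0026) in dcat/dcat by edgeR, the latter a 2.19-fold rise.

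**Figure D1:**
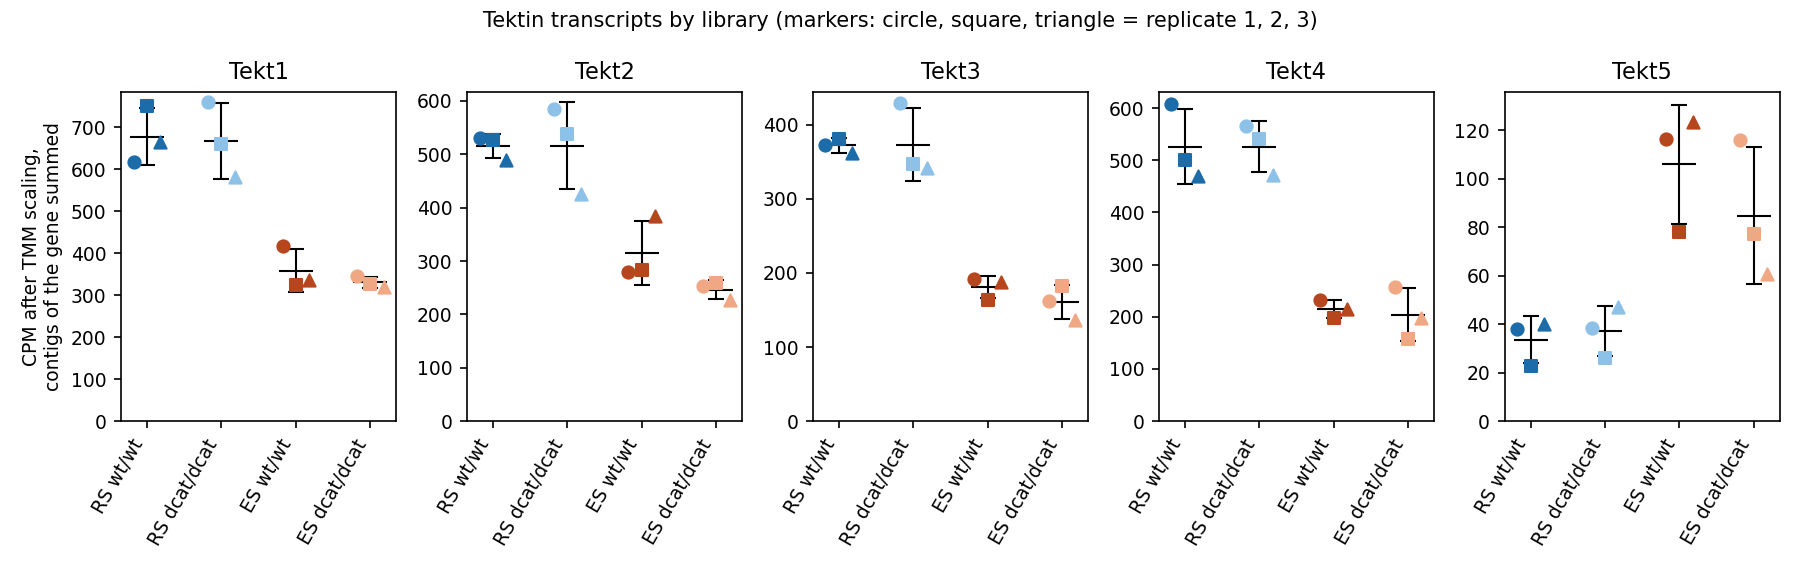
Level of each tektin gene in each library, as CPM after TMM scaling summed over the contigs of the gene (y axis, from 0), by stage and Tent5c genotype (x axis); circles, squares and triangles are replicates 1, 2 and 3, and bars are the mean ± SD of 3 libraries. Tekt1, Tekt2, Tekt3 and Tekt4 are lower in all 6 ES libraries than in all 6 RS libraries, and Tekt5 is higher in all 6.

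These changes depended on scaling in size and, for Tekt5 in dcat/dcat, in call. With total counts in place of TMM the median of all genes moved to −1.05 in wt/wt and −0.95 in dcat/dcat, and calls in wt/wt became 1320 higher and 4412 lower. With DESeq2's size factors in edgeR the medians were −0.29 in both genotypes, and by DESeq2's Wald test, which changes the model as well, they were −0.14 and −0.13. Under total counts the log2 change of Tekt5 was 0.87 (edgeR, q = 0.0099) in wt/wt and 0.46 (q = 0.159, not called) in dcat/dcat. Relative to the median of all genes, Tekt5 changed by 1.91 with TMM and by 1.92 with total counts in wt/wt, and by 1.42 and 1.41 in dcat/dcat. On the same relative scale in wt/wt, Tekt1 fell by 0.58, Tekt2 by 0.39, Tekt3 by 0.71 and Tekt4 by 0.96 with TMM.

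Over the 7 libraries left without those that stood apart, ES wt/wt holds 1 library (replicate 2), which the fit assumes to vary like the other groups. There, log2 changes in wt/wt were −1.02 for Tekt1, −0.73 for Tekt2, −1.07 for Tekt3, −1.19 for Tekt4 and 1.33 for Tekt5 (edgeR, q from 4.5e-05 to 0.0063). In dcat/dcat they were −0.90, −0.95, −1.09, −1.45 and 0.87 in the same order (q from 8.0e-09 to 0.016). With the kind of library as a term in the model over all 12 libraries, Tekt5 rose by 1.43 in wt/wt and 1.10 in dcat/dcat, and the other 4 genes fell by 0.78 to 1.37 in either genotype.

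Together the 5 genes took 0.236% to 0.303% of all counts in RS libraries (1611 to 3426 reads) and 0.0780% to 0.105% in ES libraries (353 to 585 reads). After TMM scaling their sum was 1866 to 2380 CPM in RS and 940.5 to 1247 CPM in ES. Within this sum the makeup shifted. Tekt5 made up 1.04% to 2.52% of tektin reads in RS and 6.46% to 10.2% in ES, with no overlap, and Tekt4 22.9% to 28.1% in RS and 15.7% to 22.7% in ES. Tekt1 (28.5% to 34.4% in RS, 26.9% to 33.9% in ES) and Tekt2 (22.8% to 25.5% against 22.3% to 30.9%) had overlapping shares. The ratio of Tekt5 to Tekt3 reads, which needs no scaling between libraries, was 0.0594 to 0.137 across RS libraries, against 0.425 to 0.714 across ES libraries.

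**Figure D2:**
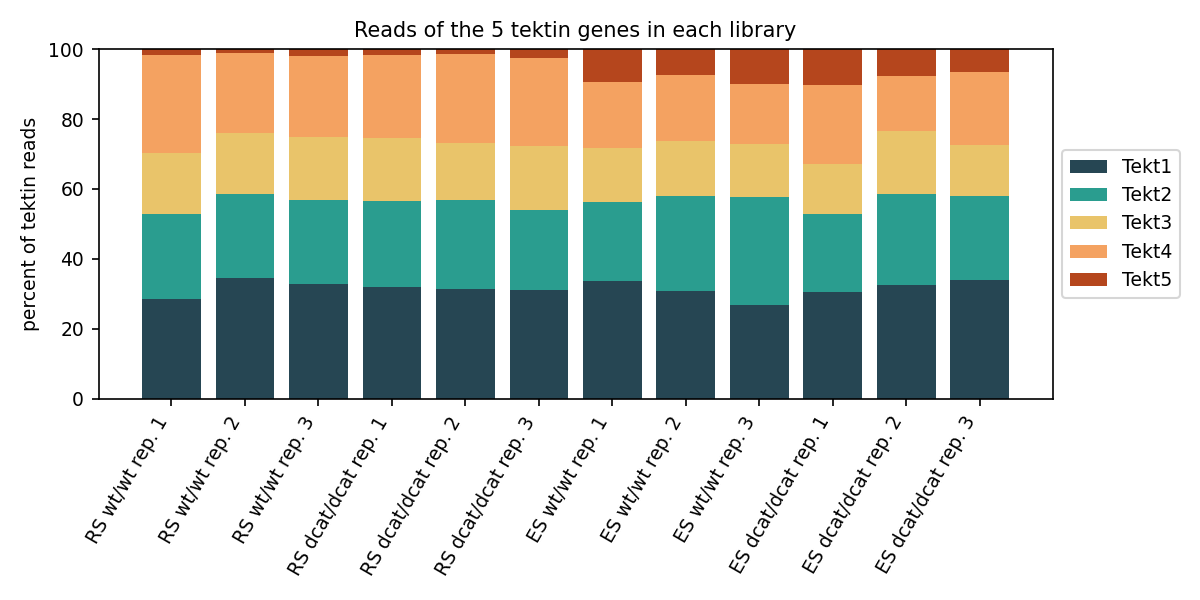
Percentage of all tektin reads from each of the 5 tektin genes (y axis, 0 to 100) in each of the 12 libraries (x axis). The Tekt5 segment is 1.04% to 2.52% of the bar in RS libraries and 6.46% to 10.2% in ES libraries.

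Per kilobase of transcript, the tektins kept nearly one order in RS. Each contig was divided by its own length, so these values, unlike summed CPM, depend on how reads were divided among contigs. Whether counts of these direct RNA reads grow with transcript length was not tested, so the order per kilobase may not be that of molecules. In CPM without length, Tekt2 (lowest library 425) and Tekt3 (highest library 429.5) overlapped in RS dcat/dcat. So did Tekt1 (lowest library 580.1) and Tekt2 (highest library 584) there, and Tekt4 (lowest library 157) and Tekt3 (highest library 182) in ES dcat/dcat. These last pairs did not overlap per kilobase. Tekt1 was highest at 483 ± 47.1 CPM per kilobase in RS wt/wt (SD, n = 3), followed by Tekt4 (354 ± 41.8) and Tekt2 (337 ± 13.7), whose libraries overlapped, then by Tekt3 (213 ± 5.57) and by Tekt5 (18.7 ± 5.34). RS dcat/dcat gave the same order, again with Tekt4 and Tekt2 overlapping. In ES wt/wt Tekt2 (206 ± 39.1) stood above Tekt4 (151 ± 7.55) without overlap and overlapped Tekt1 (256 ± 36.6) instead. In ES dcat/dcat Tekt2 (161 ± 11.4) and Tekt4 (145 ± 28.3) overlapped below Tekt1 (236 ± 10.1). Tekt5 stayed last in ES, at 58.8 ± 13.6 in wt/wt and 47.0 ± 15.7 in dcat/dcat, and did not overlap Tekt3, which was at 104 ± 8.75 in wt/wt and 91.8 in dcat/dcat.

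At the level of single contigs, 5 of 11 tektin contigs were called in each genotype by edgeR, beside 40.3% of 11831 contigs in wt/wt (2813 or 23.8% higher, 1953 or 16.5% lower) and 41% in dcat/dcat (24% higher, 16.9% lower). The median log2 change of the 11 contigs was −0.89 in wt/wt and −1.03 in dcat/dcat, beside −0.24 and −0.18 over all contigs. With total counts the wt/wt calls became 1953 higher and 5411 lower, and the tektin calls 1 higher and 6 lower. Called in both genotypes were the most counted contig of each gene. ENSMUST00000108503 of Tekt1 fell by 0.92 in wt/wt (q = 0.046) and by 1.23 in dcat/dcat (q = 0.012). ENSMUST00000102616 of Tekt2 fell by 0.68 (q = 0.035) and by 1.03 (q = 0.0036). ENSMUST00000025002, the Tekt4 contig with the 15 extra bases printed above, fell by 1.51 (q = 0.0067) and by 1.74 (q = 0.0028). Tekt3 and Tekt5, with 1 contig each, fell by 1.04 and 1.22 and rose by 1.61 and 1.15 in this table. Over 22 alternative settings the wt/wt call was kept in 13 for the Tekt1 contig, in 15 for that of Tekt2, in 21 for that of Tekt4 and in all 22 for Tekt3 and Tekt5.

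The other 6 contigs, all minor ones of Tekt1, Tekt2 and Tekt4, passed in neither genotype. Their log2 changes ran from −1.60 (ENSMUST00000021155) to −0.02 (ENSMUST00000234104) in wt/wt and from −1.58 to −0.28 for the same contigs in dcat/dcat, with SEs of 0.45 to 1.04. With the replicate number as a term, 8 of 11 tektin contigs differed between numbers (edgeR, q at or under 0.05), beside 20.1% of contigs, namely all those of Tekt1 and Tekt4 and ENSMUST00000030658 of Tekt2. The study's methods say that the cell types were isolated from the same mice, but not that a number marks the same pool in RS and ES. With the number as a block 9 of the 11 contigs were called in wt/wt, beside 51.6% of all contigs, and 8 in dcat/dcat, beside 51.9%. In wt/wt the 4 gained were ENSMUST00000021155 (fell by 1.51), ENSMUST00000108502 (fell by 0.52), ENSMUST00000030658 (fell by 0.81) and ENSMUST00000235033 (fell by 0.94). Contigs gained in dcat/dcat were ENSMUST00000021155 (fell by 1.58), ENSMUST00000030658 (fell by 1.25) and ENSMUST00000235033 (fell by 0.63). Without the 5 libraries that stood apart, the same 3 were called in dcat/dcat, at falls of 1.71, 1.18 and 0.74 (edgeR, q from 2.7e-06 to 0.012). In wt/wt that fit left 1 ES library, so no count of calls is given. Calls in wt/wt without the block changed with the libraries kept. Without ES wt/wt replicate 2 only 2 tektin contigs passed, and without RS wt/wt replicate 2, 3 passed. Without ES dcat/dcat replicate 2, which enters the wt/wt comparison only through the common fit, 3 passed as well. In the main fit the Tekt1 and Tekt2 contigs called in wt/wt lay near the threshold (edgeR, q = 0.046 and 0.035). Shares of all contigs called in these smaller sets of libraries are not printed here.

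**Figure D3:**
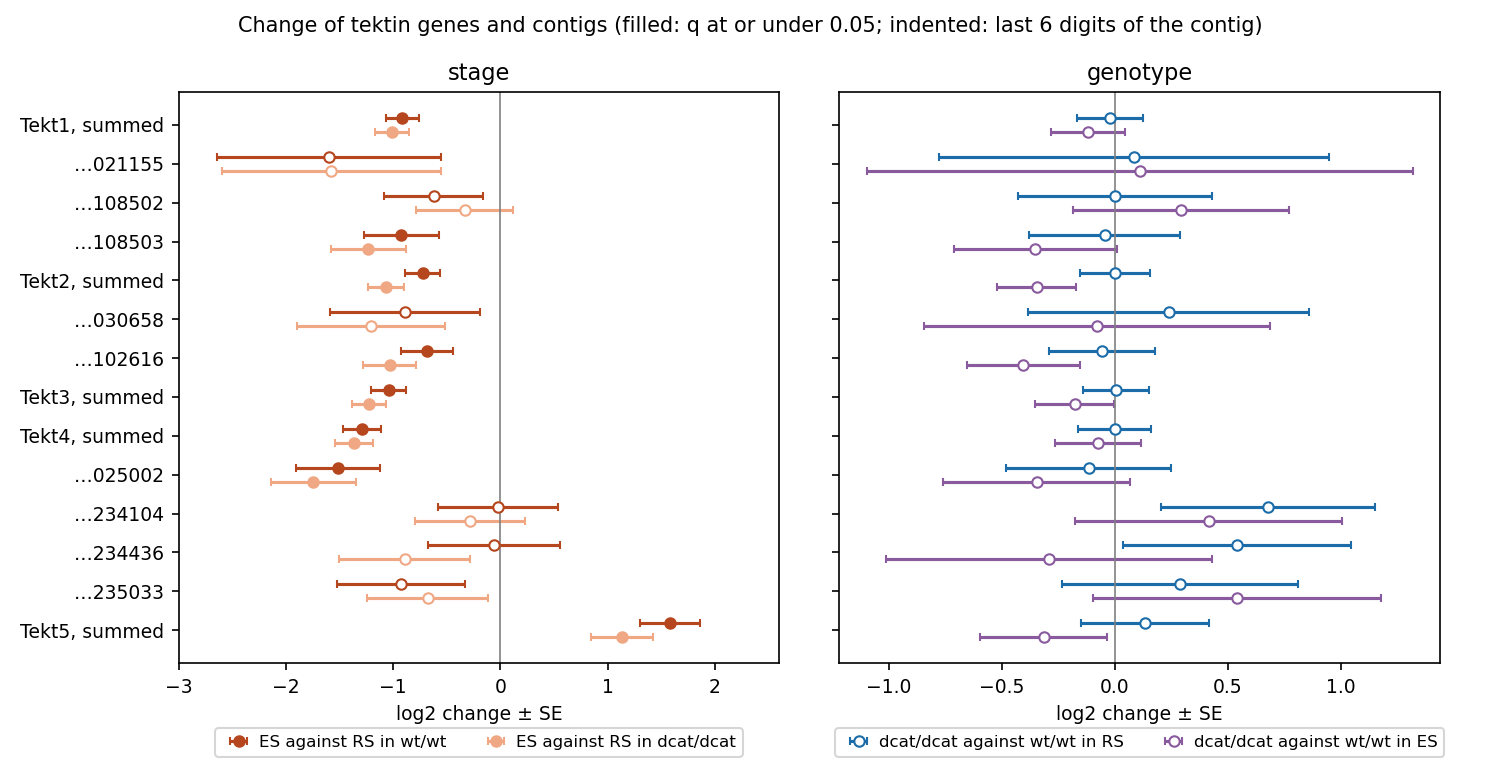
Log2 change ± SE (x axes) of each tektin gene with its contigs summed, and indented below it each contig by the last 6 digits of its identifier, between stages (left, ES minus RS) and between genotypes (right, dcat/dcat minus wt/wt); filled points have q at or under 0.05 by edgeR. On the left the summed genes and the most counted contigs are filled, and on the right none is.

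How reads were divided among contigs differed between the libraries that stood apart and the rest. Tekt1 contig ENSMUST00000021155, with its own first exon, received 0.404% to 4.21% of Tekt1 reads in the 5 libraries that stood apart and 8.99% to 17.9% in the other 7. For ENSMUST00000108502 the ranges were 9.83% to 26.3% and 25.4% to 45.0%. In Tekt2, ENSMUST00000030658 received 3.44% to 15.6% against 24.2% to 31.4%. In Tekt4, the shorter coding contig ENSMUST00000235033 received 4.55% to 13.1% against 16.7% to 36.8%. It received fewer reads than the longer coding contig in all 12 libraries, by as little as 21 against 23 reads (ES dcat/dcat replicate 2). Whether reads covered the 15 bases by which the coding sequences differ was not tested, so levels of the coding forms are not given by these shares. The processed transcripts ENSMUST00000234104 and ENSMUST00000234436 together held the rest, up to 27.0% and 8.55% of Tekt4 reads in single libraries. These groups of libraries were in part formed on such shares, so their separation is a description.

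Between stages, the share of reads on the most counted contig was not called different for any tektin. It was 68.9% in RS wt/wt, 66.3% in ES wt/wt, 65.1% in RS dcat/dcat and 57.0% in ES dcat/dcat for Tekt1 (mean ES minus RS difference of −5.31 points, exact two-sided permutation test within genotype, p = 0.605, q = 0.83 over 1880 genes). For Tekt2 the means were 82.0%, 84.3%, 78.0% and 81.0% (2.65 points, exact p = 0.65, q = 0.861), and for Tekt4 they were 80.1%, 68.5%, 74.1% and 53.7% (−15.9 points, exact p = 0.15, q = 0.404). None of the 3 genes was called by this test, beside 10.4% of genes, and none had an unadjusted p under 0.05, beside 21.8%. The smallest p these 400 arrangements can give is 0.005. Over the 7 libraries left the Tekt4 difference was −26.6 points (exact p = 0.0556, q = 0.164), with 1 ES wt/wt library, and this p is the smallest those libraries allow, so that the test could not pass 0.05.

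**Figure D4:**
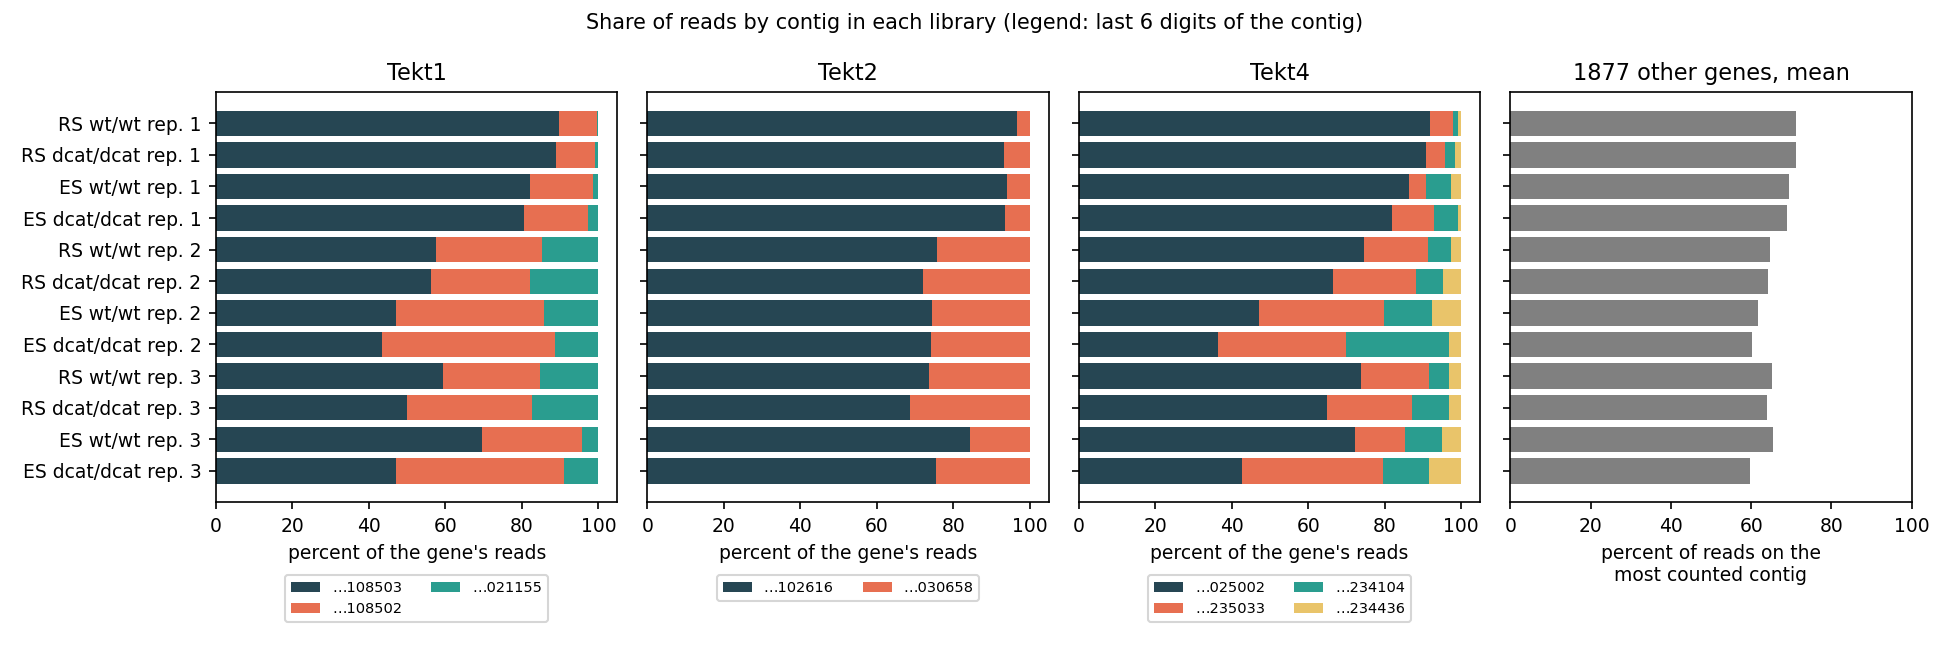
Percentage of each gene's reads on each of its contigs (x axes, 0 to 100) in the 12 libraries (y axis), for Tekt1, Tekt2 and Tekt4, and at the right the mean percentage on the most counted contig over 1877 other genes. For Tekt1, ENSMUST00000108503 takes 69.5% to 89.8% in the libraries numbered 1 and ES wt/wt replicate 3, and 43.5% to 59.4% in the other 7.

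Loss of TENT5C catalytic activity was not accompanied by a called change in the read counts of any tektin. Only counts were compared, and the lengths of poly(A) tails were not examined. In RS no gene was called by edgeR, in an analysis that called 0% of all genes, and none had an unadjusted p under 0.05, beside 1.28% of genes. DESeq2 also called no tektin. Log2 changes in RS dcat/dcat against RS wt/wt were −0.02 for Tekt1, between −0.0017 and 0.0041 for Tekt2, Tekt3 and Tekt4, and 0.13 for Tekt5. The 95% intervals of Tekt1 to Tekt4 lay within −0.34 and 0.33, and that of Tekt5 ran from −0.46 to 0.72, so changes within these intervals were not excluded. The study reports that every sorting session included a mouse of each genotype. These genotype tests and intervals come from the fit without a block and do not use that pairing. All 5 genes overlapped between genotypes in RS, where 5.7% of genes did not.

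In ES all 5 log2 changes were negative, at −0.12 for Tekt1, −0.35 for Tekt2, −0.18 for Tekt3, −0.07 for Tekt4 and −0.32 for Tekt5, and none was called by edgeR (q = 1) or DESeq2, where edgeR called 0% of genes. No tektin gene had an unadjusted p under 0.05, beside 3.71% of genes. Tekt2 came nearest, at 253, 259.7 and 226 CPM in ES dcat/dcat against 279, 283 and 385 CPM in ES wt/wt, which did not overlap (unadjusted p = 0.0605 by edgeR, 95% interval −0.71 to 0.017). Groups that do not overlap in ES were found for 8.42% of all genes, and for 1 of the 5 tektins. Intervals for the others reached from −0.46 to 0.22 (Tekt1), −0.54 to 0.19 (Tekt3), −0.47 to 0.32 (Tekt4) and −0.90 to 0.27 (Tekt5).

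The stage change itself was also compared between genotypes by an interaction term. Differences (dcat/dcat minus wt/wt) were −0.10 for Tekt1, −0.35 for Tekt2, −0.18 for Tekt3, −0.07 for Tekt4 and −0.45 for Tekt5, with SEs of 0.22 to 0.40, and no tektin was called by edgeR or DESeq2 or had an unadjusted p under 0.05, beside 1.97% of genes at that p and 0% called. Both genotypes gave the same directions, 4 down and 1 up, in libraries that the 2 comparisons do not share but within 1 fit. The share of all genes with the same direction in both genotypes is not printed here. Among single contigs no genotype or interaction value was called either, in a test that called 0% of contigs, and 0 of 11 had an unadjusted p under 0.05 in each of these comparisons, beside 0.828% of all contigs in RS and 3.01% in ES.

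Other microtubule inner proteins went in both directions. Of 41 listed genes 40 were counted, in 63 contigs of which 62 were tested, and 38 contigs were called in wt/wt (20 higher, 18 lower) and 40 in dcat/dcat (19 higher, 21 lower), beside 40.3% (23.8% higher, 16.5% lower) and 41% (24% higher, 16.9% lower) of all contigs. Both genotypes shared 36 of these calls, 19 higher and 17 lower, and none was opposite. The share of all contigs called in both genotypes is not printed here, so this count does not tell the list apart from all contigs. With total counts the wt/wt split was 14 higher and 31 lower. Under that scaling 62.2% of all contigs were called in wt/wt, 1953 higher and 5411 lower. With contigs summed, 32 of 40 genes were called in wt/wt (12 higher, 20 lower) and 35 in dcat/dcat (12 higher, 23 lower), beside 52.5% (24.7% higher, 27.8% lower) and 52% (24.7% higher, 27.3% lower) of all genes. They had a median log2 change of −0.60 and −0.80 beside −0.33 and −0.29 over all genes.

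Genes named after the tektins also went both ways. Tektip1, which binds the tektin bundle, rose by 0.87 in wt/wt (edgeR, q = 0.0049) and by 0.77 in dcat/dcat (q = 0.012). Tektl1, a tektin-like protein, fell by 1.14 (q = 0.0024) and by 1.29 (q = 1.0e-03). The contigs risen in wt/wt with the smallest q were of Spmip9 (2.85), Spmip8 (ENSMUST00000161029, 2.71), Spaca9 (ENSMUST00000124840, 2.31) and Spmip6 (ENSMUST00000030152, 2.80, and ENSMUST00000095126, 3.14). All are named as sperm microtubule inner proteins except Spaca9, an inner protein of the same list that is named after the acrosome. Among those fallen with the smallest q were contigs of Pierce2 (−1.27), Cfap95 (−1.08), Cfap20 (−1.22) and Cfap52 (−1.16), proteins of ciliary doublets more widely. Among genes carrying the Spmip name, a subset formed after the values were seen, 7 of 9 were higher and 1 lower in wt/wt, and among the other 31 genes 5 were higher and 19 lower. Tekt5, at 1.58 and not itself counted in the list, lay among the values of its risen genes in wt/wt. No contig of the list was called between genotypes.

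**Figure D5:**
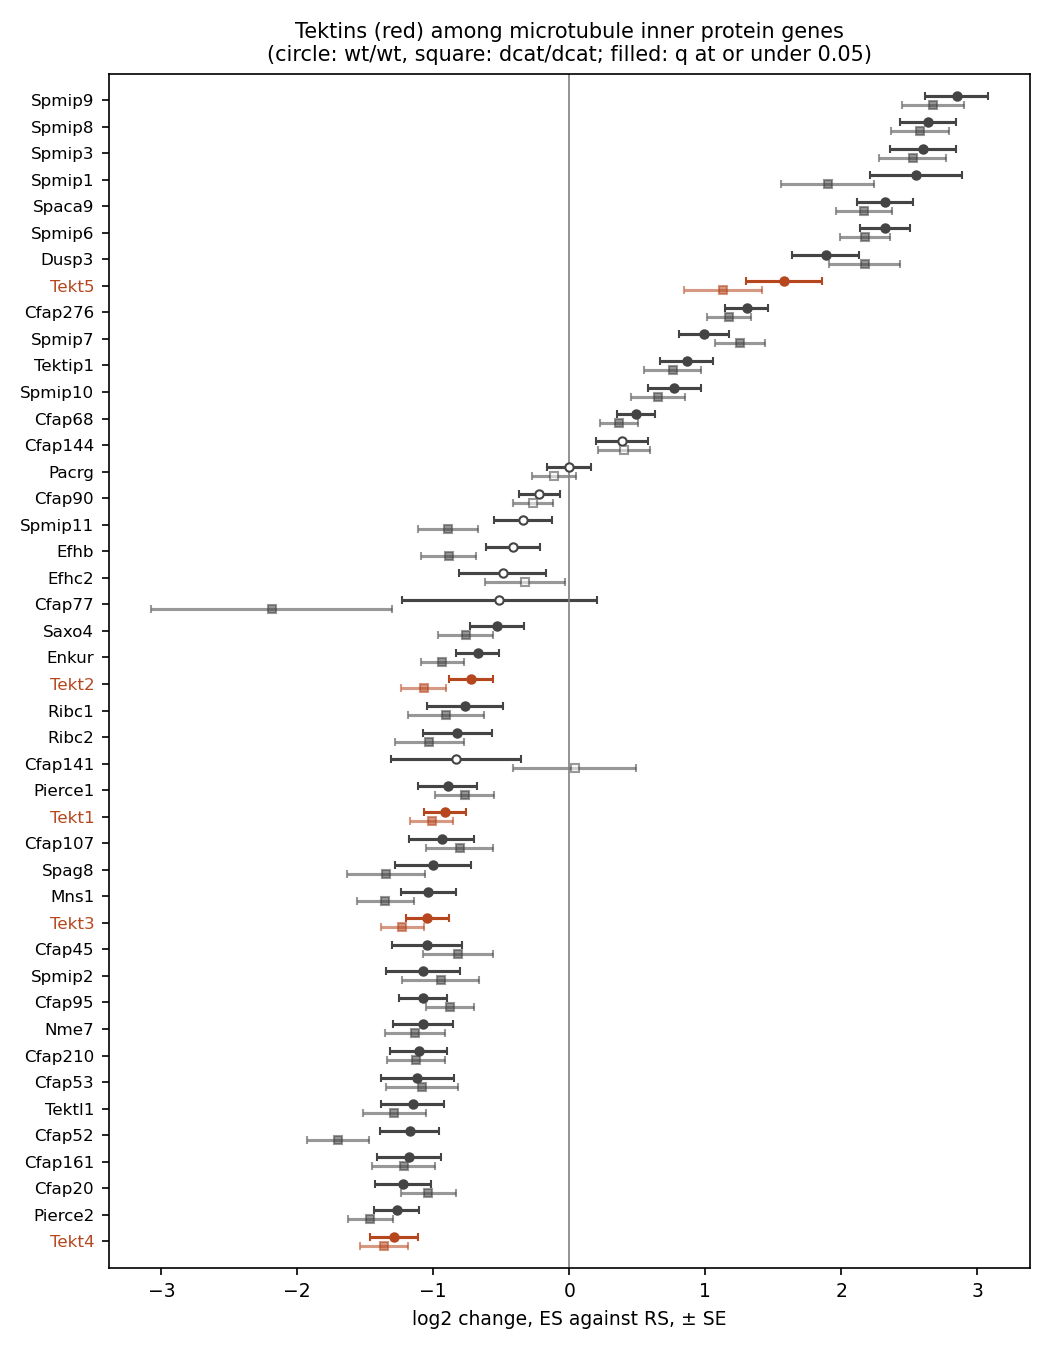
Log2 change from RS to ES ± SE (x axis) of the 5 tektins (red) and other microtubule inner protein genes of the list (y axis, ordered by the wt/wt value), with contigs summed; circles are wt/wt, squares dcat/dcat, and filled points have q at or under 0.05 by edgeR. Tekt5 lies near the top with the 12 inner protein genes called higher, and the other 4 tektins lie among the fallen ones.

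Genes whose pattern over the 12 libraries came closest to each tektin were found by the root mean square difference of log2 CPM centred on each gene's mean, over 6866 genes. They were Sod2, Enkd1 and Trim27 for Tekt1 (0.09 to 0.10), Exoc3, Ubxn4 and Med7 for Tekt2 (0.08 to 0.10), Cfap36, Gmfb and Pbp2 for Tekt3 (0.11), and Krcc1, Mtmr9 and Gkap1 for Tekt4 (0.10 to 0.11). For Tekt5 they were Tbata, Antxrl and Rffl (0.19 to 0.23), a looser match. Among the tektins, Tekt1 and Tekt3 were the closest pair (0.14) and Tekt4 and Tekt5 the farthest (1.38). The 12 libraries hold 2 stages, between which 52.5% of genes were called different in wt/wt.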

How the data were processed

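Direct RNA reads from 12 libraries, each a pool of RNA from 3 mice, had been base-called with Guppy, aligned to GENCODE vM17 transcripts of GRCm38 with minimap2 (2.20-r1061 in the submitters' processing notes, a later version in the study's methods), demultiplexed with Deeplexicon and filtered on the quality of the Nanopolish poly(A) estimate. The deposited matrix holds raw counts per transcript contig, made by the authors. Their DESeq2 tables hold log2 fold changes and p-values of their own comparisons, of which only the gene symbols were used. Positions and sequences came from GRCm38 with GENCODE vM21, which holds all 11 tektin contigs under the same symbols.

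A contig was tested if 2 or more libraries of one group held 10 reads or more (11831 of 12114), and sums by gene symbol were filtered likewise (7707 tested). edgeR 4.0.16 in R 4.3.3 fitted 1 mean per group over all 12 libraries after TMM scaling, with a quasi-likelihood F test, Benjamini-Hochberg adjustment over all features and calls at q at or under 0.05. DESeq2 1.42.0 was an alternative. CPM values are counts scaled to library size after TMM, without a prior count, and 95% intervals use the SE and the degrees of freedom of the quasi-likelihood test. Floors cover counting error only. Genes tested for contig shares had several contigs. The scripts were tested on simulated data. Named genes were all tektin contigs, Tektip1, Tektl1, up to 5 risen and 5 fallen inner protein contigs of smallest q in wt/wt, the ends of each marker list and the 3 genes nearest each tektin. One fallen inner protein gene is counted but not reported by name or drawn here. Members and lists were chosen with earlier results of these data known. Deviations of same-numbered libraries correlated at 0.38 to 0.70 between RS wt/wt and RS dcat/dcat, at 0.25 to 0.52 between RS dcat/dcat and ES dcat/dcat and at −0.09 to 0.40 between RS wt/wt and ES wt/wt. The study's methods say that cell types came from the same mice, and blocked values stand beside the results they change.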

Additional observations from a re-analysis of the deposited data

How the results depend on the processing

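All 5 tektin genes kept their direction and their call from RS to ES under every alternative in wt/wt, and in dcat/dcat under every alternative except total counts for Tekt5. Counts of called contigs moved more. In wt/wt 3 tektin contigs were called by DESeq2's Wald test, beside 36.2% of all contigs. With the replicate block 9 were called, and 2 to 5 when leaving out each library in turn. In dcat/dcat 8 were called with the replicate block, over the 8 libraries numbered 2 and 3, over the 7 libraries left and with library kind as a term. The last 3 alternatives were chosen after seeing the data. The cause of these moves was not tested. Beyond DESeq2 and the replicate block, shares of all contigs called are not printed here. Those counts therefore do not tell tektins apart from all contigs. Same-numbered ES wt/wt and ES dcat/dcat libraries correlated at 0.03 to 0.45. The replicate block changed no other count of called tektins by over 1.5 times.

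Signs turned only for values never called. In RS between genotypes, Tekt2 was 0.013 by DESeq2, 0.0100 with its size factors and 0.0026 with only the groups compared. Tekt3 was −0.0034 with total counts, −0.0088 without a filter, −0.00048 with at least 10 reads in every library, −0.0010 with the replicate block, −0.0016 with library kind, −0.11 over 8 libraries and −0.10 over 7. Tekt4 was 0.017 by DESeq2, 0.0077 with its size factors, 0.0046 with the replicate block, 0.0049 with library kind, 0.0011 with only the groups compared, 0.057 over 8 libraries and 0.061 over 7. In ES Tekt4 was 0.0082, and in the interaction 0.0033, with library kind, and the interaction of Tekt1 was 0.14 over 8 and 0.12 over 7 libraries. From RS to ES in wt/wt, ENSMUST00000234104 was 0.0017 by DESeq2, 0.015 with its size factors, 0.020 with the replicate block, 0.016 with only the groups compared and 0.34 with library kind, and ENSMUST00000234436 was 0.21 over 7 libraries and 0.23 with library kind. Leaving out each library gave, in RS between genotypes, −0.12 to 0.082 for Tekt1, −0.10 to 0.14 for Tekt2, −0.11 to 0.076 for Tekt3, −0.11 to 0.11 for Tekt4 and −0.073 to 0.31 for Tekt5, in ES −0.26 to 0.073 for Tekt4, and in the interaction −0.20 to 0.019 for Tekt1 and −0.26 to 0.076 for Tekt4. From RS to ES it gave −0.44 to 0.30 for ENSMUST00000234104 and −0.40 to 0.34 for ENSMUST00000234436 in wt/wt, −0.67 to 0.040 for ENSMUST00000234104 in dcat/dcat, and share differences of −11.2 to 0.65 points for Tekt1 and −0.49 to 6.47 points for Tekt2.

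No fit of only the groups compared exists for the interaction, and with at least 10 reads in every library only Tekt1 kept contigs enough for a share. The count of reads limits Tekt5 most, and the minor contigs, with as few as 1 read in a library, allow no order among themselves.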
